A study of Mus musculus with 8 samples.

Results

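Collagen genes were followed in cultured mouse fat cells that had received DoxSa or DMSO, a common solvent for such compounds. The rule took every protein coding row whose symbol has the form of a collagen alpha chain gene, such as Col1a1, and found 43 genes among the 22962 of the table, of which 17060 are protein coding. The cells were wild-type stromal vascular cells of gonadal fat, the progenitor, immune and vascular cells left when floating fat cells are taken away, and they had been differentiated into adipocytes. Treatment was given on day 6, and each group has 4 libraries, numbered 1 to 4. DoxSa is not spelled out in the labels, and the series title names 1-deoxysphingolipids, sphingolipids made from alanine in place of serine. The dose of DoxSa, the length of exposure and the age and strain of the mice were not stated in what was read here. Nor do the labels tie the libraries of a group to separate mice or cultures, in which case the tests describe only the spread between these libraries, which may be technical.

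Collagens are the main structural proteins of the extracellular matrix. Each is built of alpha chains, rich in glycine and proline, that wind around each other into a helical rod, and different genes encode the chains. Fibrillar collagens pack into the banded fibrils that carry tension, and FACIT collagens sit on the surface of those fibrils. Type IV collagen forms the sheet of the basement membrane that wraps each adipocyte, type VI forms beaded filaments next to it and is abundant in fat, and type VIII forms hexagonal lattices. The question here was which of these chains differ in transcript level between DoxSa and DMSO.

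The test covered the 24 collagen genes whose average level over the 8 libraries reached 0.5 FPKM, and 7 of them fell in DoxSa while 0 rose. The 7 were Col12a1, Col8a1, Col4a5, Col8a2, Col11a1, Col28a1 and Col5a1, with log2 fold changes between -0.45 ± 0.06 and -0.18 ± 0.04 (SE, limma on log2(FPKM + 1), n = 4 per group, Benjamini-Hochberg adjusted p between 0.00237 and 0.0281). The abundant chains of type I, III, IV and VI collagen did not pass the test. FPKM is a level per length of transcript and relative to the library's read total, and adjusted p covers all 12060 genes tested. Of these 12060 genes, 2.02% were called lower and 3.88% higher (5.9% in either direction), against 29.2% and 0% of the tested collagen genes. At an unadjusted p under 0.05, 9 collagen genes were lower and 0 higher, and limma on recovered reads (voom) called 7 lower and 0 higher. The shares of all genes by these 2 criteria are not given here, so these counts have no background beside them. The median log2 fold change was -0.07 over the 24 collagen genes and 0.012 over all tested genes. Of the 24, 21 lay below 0, against 43.3% of all tested genes. Markers of myofibroblasts and smooth muscle were lower beside these genes, with 7 of 8 called (6 of 7 without Myh11, whose DoxSa mean of 0.403 FPKM lay under the minimum). Acta2, smooth muscle actin, measured 267 to 309 FPKM in DMSO and 172 to 191 FPKM in DoxSa. The part of these cells in the collagen result was not tested. In bulk libraries, fewer cells of a type and less RNA per cell cannot be told apart.

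How firmly the 7 were called differed. Col12a1, Col11a1, Col8a1, Col8a2 and Col4a5 were called whichever of the 8 libraries was left out. Col5a1 lost its call without DMSO 2, DMSO 4, DoxSa 1, DoxSa 2 or DoxSa 4 and Col28a1 without DMSO 1, DMSO 2, DMSO 4, DoxSa 1 or DoxSa 2, so that 5 collagen genes were called without DMSO 2, DMSO 4, DoxSa 1 or DoxSa 2. Without a filter on low values, Col12a1 and Col11a1 were the 2 collagen genes called. Just inside the minimum of 0.5 FPKM lay Col8a2 at a mean of 0.687 FPKM and Col20a1 at 0.721 FPKM, and just outside it Col23a1 at 0.297 FPKM. The DoxSa mean of Col8a2 lay under the minimum, so that it was tested only because of its DMSO level, and 6 of 23 tested genes were lower without it. With a minimum of 2 FPKM, 6 of 20 collagen genes were called lower, where 2.38% of all genes were.

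**Figure D1:**
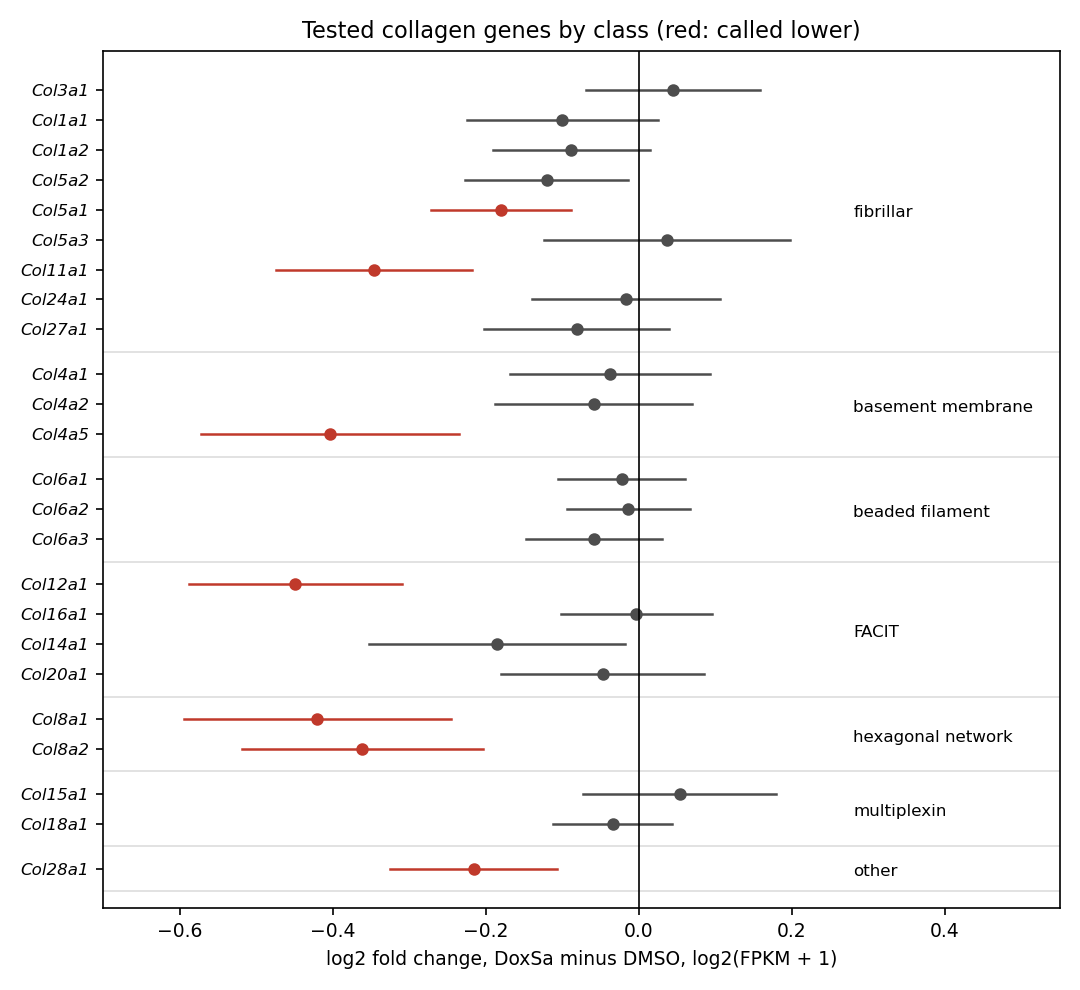
Log2 fold change of DoxSa minus DMSO on the log2(FPKM + 1) scale (x axis) for the 24 tested collagen genes, grouped by class and ordered by level within a class, with 95% intervals of the limma fit as bars. The 7 genes called lower are in red and span 5 of the 7 classes shown, while the intervals of the 3 type VI chains all include 0.

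The stretches of DNA upstream of the called genes are shown because these genes were called in the same direction. The RefSeq promoter table of build GRCm38.p6, an older build than the GRCm39 named by the submitters, held 34 of the 43 collagen genes and 6 of the 7 called ones, without Col12a1. Each sequence is the 250 bases before the annotated start, written 5′ to 3′ along the gene's strand, with capitals on every match to GGGCGG, the GC box bound by SP1-type factors, in either orientation. The windows are chr16:57754738-57754987 on the minus strand for Col8a1, chr4:126286544-126286793 on the plus strand for Col8a2, chr3:114030290-114030539 on the plus strand for Col11a1, chr2:27886175-27886424 on the plus strand for Col5a1, chrX:141475169-141475418 on the plus strand for Col4a5 and chr6:8192618-8192867 on the minus strand for Col28a1.
Col8a1: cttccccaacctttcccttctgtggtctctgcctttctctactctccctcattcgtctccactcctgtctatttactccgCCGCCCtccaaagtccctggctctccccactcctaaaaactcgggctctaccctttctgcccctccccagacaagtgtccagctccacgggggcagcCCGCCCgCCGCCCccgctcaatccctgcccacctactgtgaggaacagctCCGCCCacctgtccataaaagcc
Col8a2: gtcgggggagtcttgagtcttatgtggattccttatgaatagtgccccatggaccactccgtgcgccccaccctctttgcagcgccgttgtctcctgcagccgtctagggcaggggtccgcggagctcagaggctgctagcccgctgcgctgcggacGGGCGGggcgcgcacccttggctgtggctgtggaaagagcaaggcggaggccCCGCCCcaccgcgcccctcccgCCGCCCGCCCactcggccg
Col11a1: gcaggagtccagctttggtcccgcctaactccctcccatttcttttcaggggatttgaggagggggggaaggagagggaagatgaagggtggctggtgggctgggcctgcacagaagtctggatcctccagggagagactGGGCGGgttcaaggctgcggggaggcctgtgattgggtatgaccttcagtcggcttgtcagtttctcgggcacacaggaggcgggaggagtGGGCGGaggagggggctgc
Col5a1: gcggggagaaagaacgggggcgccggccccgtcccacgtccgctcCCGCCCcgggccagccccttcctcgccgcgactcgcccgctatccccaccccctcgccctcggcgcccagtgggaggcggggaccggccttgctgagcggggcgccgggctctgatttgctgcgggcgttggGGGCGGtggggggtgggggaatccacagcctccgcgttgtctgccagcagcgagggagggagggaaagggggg
Col4a5: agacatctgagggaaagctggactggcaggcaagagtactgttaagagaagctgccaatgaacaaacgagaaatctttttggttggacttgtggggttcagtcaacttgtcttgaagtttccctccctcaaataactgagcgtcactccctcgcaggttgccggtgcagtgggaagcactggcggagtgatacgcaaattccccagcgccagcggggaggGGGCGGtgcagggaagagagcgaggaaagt
Col28a1: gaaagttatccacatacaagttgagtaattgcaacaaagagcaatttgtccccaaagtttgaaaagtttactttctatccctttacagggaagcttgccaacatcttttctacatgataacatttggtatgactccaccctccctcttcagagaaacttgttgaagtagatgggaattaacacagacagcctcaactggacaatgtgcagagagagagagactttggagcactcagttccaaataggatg
A GC box stood in 5 of these 6 windows, with 4 matches each for Col8a1 and Col8a2, 2 each for Col11a1 and Col5a1, 1 for Col4a5 and 0 for Col28a1. It was also found in 12 of the 20 tested collagen genes with an entry, which include these 6. Of the 32851 windows of that length, 32.7% held it. Collagen genes were counted by gene and the background by window, and the difference between these shares was not tested. CCAAT, the box bound by NF-Y, was found upstream of Col11a1 and Col4a5, in 8 of the 20 and in 33.8% of windows. Neither TATAAA, the TATA box, nor GGAATG, the core of a TEAD site, was found in the 6 windows. They stood in 1 and 4 of the 20 and in 12.4% and 12.6% of all windows (both orientations searched, each motif counted on its own). At such shares, absence from 6 windows does not set the called genes apart. Base composition differed widely, with 76.4% G or C for Col5a1 and 40.4% for Col28a1, where the median of all windows was 52.4%.

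Among fibrillar collagens, 2 of 9 tested genes fell, both of them chains of the type V and XI group that starts and sizes fibrils. Col11a1, a chain that nucleates thin fibrils, measured 3.32, 3.46, 3.16 and 3.09 FPKM in DMSO 1 to 4 and 2.12, 2.66, 2.39 and 2.23 FPKM in DoxSa 1 to 4. All DoxSa libraries lay below all DMSO libraries, and the mean fell by 27.8% (3.25 ± 0.166 FPKM in DMSO and 2.35 ± 0.235 FPKM in DoxSa as mean ± SD, n = 4, log2 fold change -0.35 ± 0.06, adjusted p = 0.00676). On the log2(FPKM + 1) scale this low gene appears less changed than in its reads, where voom gave -0.47. Col5a1, the chain that limits fibril diameter in type V collagen, measured 169, 178, 165 and 175 FPKM in DMSO 1 to 4 and 141, 154, 158 and 154 FPKM in DoxSa 1 to 4. Its groups did not overlap, and the difference was smaller (172 ± 5.86 FPKM in DMSO and 152 ± 7.47 FPKM in DoxSa as mean ± SD, n = 4, log2 fold change -0.18 ± 0.04, adjusted p = 0.0277).

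The partner chains of Col5a1 did not pass the test. Col5a2 measured 303, 325, 284 and 313 FPKM in DMSO 1 to 4 and 262, 293, 289 and 282 FPKM in DoxSa 1 to 4, and the groups overlapped (log2 fold change -0.12 ± 0.05, 95% interval -0.23 to -0.014, adjusted p = 0.191). Col5a3, the least abundant type V chain here, measured 60.6 to 80.8 FPKM in DMSO and 68.5 to 75.8 FPKM in DoxSa (log2 fold change 0.037 ± 0.07, adjusted p = 0.844). The ratio of Col5a1 to Col5a2 was 0.559, 0.547, 0.581 and 0.561 across DMSO 1 to 4 and 0.538, 0.525, 0.547 and 0.545 across DoxSa 1 to 4, and DMSO 2 and DoxSa 3 met at about the same value. These ratios, like the others below, are descriptions without a test.

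Type I and type III collagen, the bulk of the fibrils, held 64.1% of all collagen FPKM and were the 3 highest collagen genes. Col1a1 measured 1328, 1348, 1209 and 1345 FPKM in DMSO 1 to 4 and 1093, 1252, 1294 and 1245 FPKM in DoxSa 1 to 4. DoxSa 1 was the lowest library, but DMSO 3 lay below 3 of the 4 DoxSa libraries (log2 fold change -0.10 ± 0.06, 95% interval -0.22 to 0.024, adjusted p = 0.368). Col1a2, which encodes the other chain of type I collagen, measured 1214, 1239.5, 1122 and 1211 FPKM in DMSO 1 to 4 and 1048, 1163, 1172 and 1121 FPKM in DoxSa 1 to 4. Here too the groups overlapped (log2 fold change -0.088 ± 0.05, 95% interval -0.19 to 0.014, adjusted p = 0.33). Col3a1, the single chain of type III collagen, measured 1460.1, 1471, 1379 and 1358 FPKM in DMSO 1 to 4 and 1327, 1553, 1502 and 1471 FPKM in DoxSa 1 to 4. DoxSa 1 was the lowest and DoxSa 2 the highest of all libraries, and the mean difference had the opposite sign to that of type I (log2 fold change 0.045 ± 0.05, 95% interval -0.069 to 0.16, adjusted p = 0.705), with -0.012 after quantile normalization. The ratio of Col1a1 to Col1a2 in FPKM was 1.09, 1.09, 1.08 and 1.11 across DMSO 1 to 4 and 1.04, 1.08, 1.10 and 1.11 across DoxSa 1 to 4, with no separation of the groups. Of the remaining tested fibrillar genes, Col24a1 and Col27a1 measured about 1 FPKM and their log2 fold changes were -0.017 ± 0.06 and -0.081 ± 0.06.

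**Figure D2:**
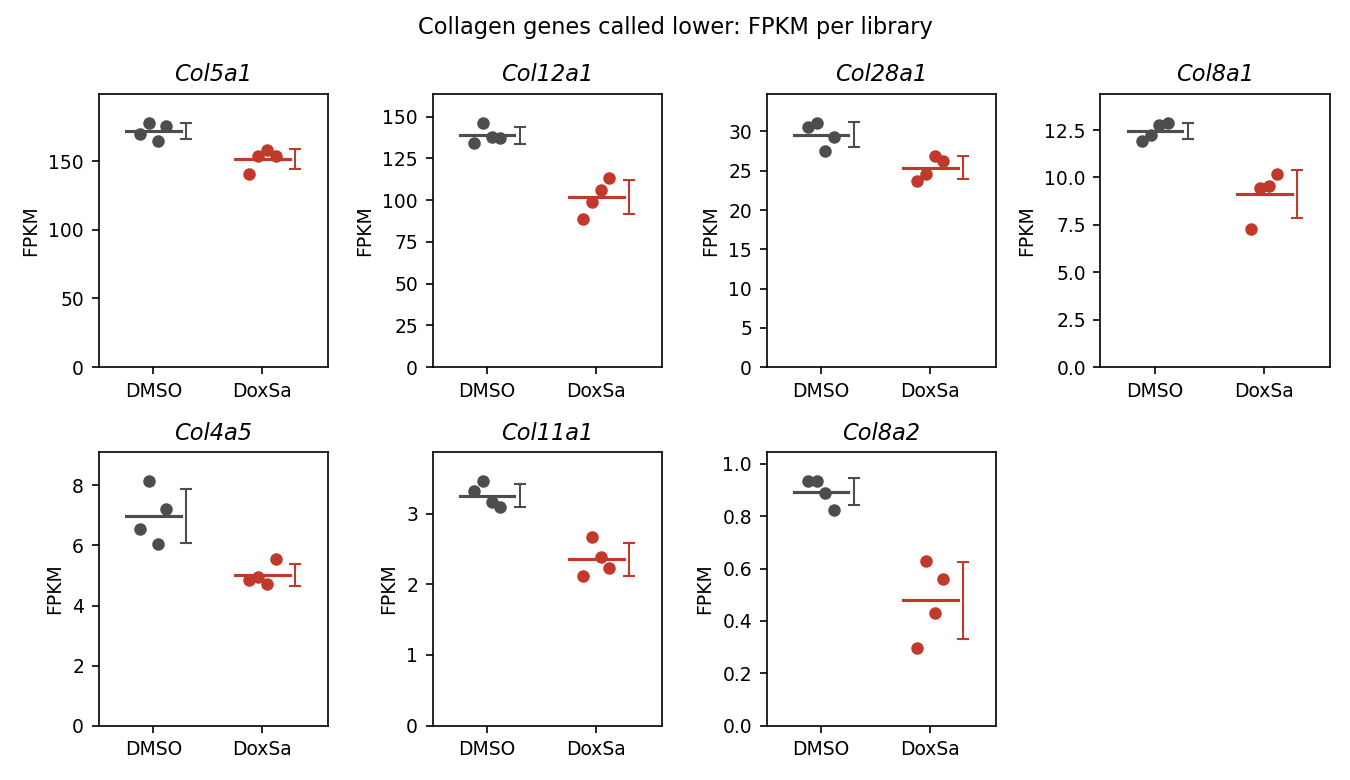
FPKM (y axis, from 0) of the 7 called collagen genes in each of the 4 DMSO and 4 DoxSa libraries (points), with the group mean (line) and SD (bar). In every panel all 4 DoxSa libraries lie below all 4 DMSO libraries, and DoxSa 1, the leftmost red point, is the lowest library for 6 of the 7 genes.

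Among FACIT collagens, 1 of 4 tested genes fell. Col12a1, a long chain that coats type I fibrils in tissues under load, measured 134, 146, 138 and 137 FPKM in DMSO 1 to 4 and 88.9, 98.9, 106 and 113 FPKM in DoxSa 1 to 4. The DoxSa libraries all lay below the DMSO libraries, and the mean fell by 26.7% (139 ± 5.13 FPKM in DMSO and 102 ± 10.4 FPKM in DoxSa as mean ± SD, n = 4, log2 fold change -0.45 ± 0.06, adjusted p = 0.00237). It had the largest fold change of the tested collagen genes on this scale and rested on many reads, with 77637 to 81108 reads in DMSO and 52007 to 66174 in DoxSa. Its adjusted p ranged from 0.000131 to 0.0321 over the other settings and left-out libraries. Col14a1, the related fibril-coating chain, measured 14.5, 14.8, 13.8 and 13.3 FPKM in DMSO 1 to 4 and 10.0, 13.4, 13.1 and 12.9 FPKM in DoxSa 1 to 4. Only DoxSa 1 stood well below the rest, and the call was not made (log2 fold change -0.19 ± 0.08, 95% interval -0.35 to -0.018, adjusted p = 0.202). Col16a1 measured 29.1, 28.2, 25.6 and 27.1 FPKM in DMSO 1 to 4 and 26.2, 28.8, 27.7 and 27.0 FPKM in DoxSa 1 to 4, with overlapping groups and a log2 fold change of -0.0034 ± 0.05 (95% interval -0.10 to 0.10, adjusted p = 0.982). Col20a1 was low, at 0.637 to 0.845 FPKM in DMSO and 0.568 to 0.797 FPKM in DoxSa, and did not pass the test (adjusted p = 0.735).

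The 2 tested genes of the hexagonal network class, Col8a1 and Col8a2, both fell, though Col8a2 was tested only because of its DMSO level. Col8a1, the more abundant chain of type VIII collagen, measured 11.9, 12.3, 12.7 and 12.9 FPKM in DMSO 1 to 4 and 7.27, 9.46, 9.55 and 10.2 FPKM in DoxSa 1 to 4. The groups were apart, and the mean fell by 26.8% (12.5 ± 0.440 FPKM in DMSO and 9.11 ± 1.27 FPKM in DoxSa as mean ± SD, n = 4, log2 fold change -0.42 ± 0.08, adjusted p = 0.0121). Col8a2 measured 0.933, 0.933, 0.888 and 0.822 FPKM in DMSO 1 to 4 and 0.297, 0.629, 0.431 and 0.561 FPKM in DoxSa 1 to 4. The mean fell by 46.4%, the steepest relative fall among the called collagen genes (0.894 ± 0.0525 FPKM in DMSO and 0.479 ± 0.147 FPKM in DoxSa as mean ± SD, n = 4, log2 fold change -0.36 ± 0.07, adjusted p = 0.0147). Because Col8a2 lay under 1 FPKM, the added pseudocount of 1 shrinks its change, and it was -0.82 with a pseudocount of 0.1 and -0.95 by voom. The reads behind it were few, 151 to 171 reads in DMSO and 55 to 112 in DoxSa. The ratio of Col8a1 to Col8a2 was 12.8, 13.1, 14.4 and 15.7 across DMSO 1 to 4 and 24.5, 15.03, 22.2 and 18.1 across DoxSa 1 to 4. DoxSa 1, DoxSa 3 and DoxSa 4 were above every DMSO library in this ratio, and DoxSa 2 was not. The third gene of the class, the cartilage collagen Col10a1, was not tested, with 0 to 13 reads per library.

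In the basement membrane class, 1 of 3 tested genes fell. Col4a1 and Col4a2 encode the chains of the common type IV network. Col4a1 measured 244, 264, 219 and 271 FPKM in DMSO 1 to 4 and 244, 233, 251 and 241 FPKM in DoxSa 1 to 4. Its DoxSa libraries lay within the DMSO range (log2 fold change -0.038 ± 0.06, 95% interval -0.17 to 0.093, adjusted p = 0.796). Col4a2 measured 161, 171, 143 and 178 FPKM in DMSO 1 to 4 and 154, 151, 162 and 157 FPKM in DoxSa 1 to 4, with the same overlap (log2 fold change -0.059 ± 0.06, 95% interval -0.19 to 0.069, adjusted p = 0.645). Their ratio was 1.51, 1.54, 1.53 and 1.53 across DMSO 1 to 4 and 1.58, 1.54, 1.55 and 1.54 across DoxSa 1 to 4, a narrow range across all libraries. Col4a5, the chain mutated in X-linked Alport syndrome, was far less abundant and measured 6.55, 8.13, 6.05 and 7.21 FPKM in DMSO 1 to 4 and 4.83, 4.96, 4.71 and 5.56 FPKM in DoxSa 1 to 4. All DoxSa libraries lay below all DMSO libraries, and the mean fell by 28.2% (6.99 ± 0.901 FPKM in DMSO and 5.01 ± 0.379 FPKM in DoxSa as mean ± SD, n = 4, log2 fold change -0.40 ± 0.08, adjusted p = 0.0122). Col4a6, its neighbour on the X chromosome and partner in minor networks, was not tested, with 29 to 69 reads in DMSO and 24 to 27 in DoxSa. Its lowest DMSO library was above its highest DoxSa library. Without a filter on low values its adjusted p was 0.209 by limma, in a fit whose pseudocount of 1 shrinks changes at such levels. Col4a3 and Col4a4, chains of the kidney network, had at most 6 reads in a library.

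None of the 3 tested beaded filament genes was called, and none reached an unadjusted p under 0.05. Col6a1 measured 544, 561, 509 and 539 FPKM in DMSO 1 to 4 and 517, 526, 548 and 528 FPKM in DoxSa 1 to 4. Col6a2 measured 251, 251, 233 and 241 FPKM in DMSO 1 to 4 and 238, 239, 252 and 238 FPKM in DoxSa 1 to 4. Col6a3, whose protein gives rise to the fragment endotrophin in fat, measured 92.3, 91.3, 85.3 and 91.4 FPKM in DMSO 1 to 4 and 89.3, 81.7, 90.04 and 84.8 FPKM in DoxSa 1 to 4. For each of them the groups overlapped. The log2 fold changes were -0.023 ± 0.04 for Col6a1 (95% interval -0.11 to 0.06), -0.014 ± 0.04 for Col6a2 (95% interval -0.094 to 0.066) and -0.059 ± 0.04 for Col6a3 (95% interval -0.15 to 0.03), with adjusted p of 0.805, 0.888 and 0.474 by limma. The lowest bound of the 3 intervals was -0.15, and voom called none. Per length, Col6a1 stood at 2.21 ± 0.0362 times Col6a2 in DMSO and 2.19 ± 0.0222 times in DoxSa (SD, n = 4), and at 5.98 ± 0.115 and 6.13 ± 0.274 times Col6a3. Col6a4, Col6a5 and Col6a6, the later found type VI chains, had at most 10 reads in any library. Of these, Col6a4 had 5 to 10 reads in DMSO and 1 to 5 in DoxSa.

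Outside these classes, Col28a1 fell. It encodes a chain with von Willebrand factor domains, better known from nerve, and measured 30.6, 31.1, 27.5 and 29.3 FPKM in DMSO 1 to 4 and 23.7, 24.6, 26.9 and 26.3 FPKM in DoxSa 1 to 4. Its groups did not overlap, though DMSO 3 and DoxSa 3 were close (29.6 ± 1.6 FPKM in DMSO and 25.4 ± 1.47 FPKM in DoxSa as mean ± SD, n = 4, log2 fold change -0.22 ± 0.05, adjusted p = 0.0281). The multiplexins Col15a1 and Col18a1, basement membrane collagens whose ends release anti-angiogenic fragments, did not pass the test. Col15a1 measured 129.6, 138, 119 and 148 FPKM in DMSO 1 to 4 and 144, 133, 141 and 136 FPKM in DoxSa 1 to 4 (log2 fold change 0.054 ± 0.06, 95% interval -0.073 to 0.18, adjusted p = 0.676). Col18a1 measured 17.2, 16.4, 16.0 and 16.5 FPKM in DMSO 1 to 4 and 16.3, 15.6, 16.3 and 16.2 FPKM in DoxSa 1 to 4 (log2 fold change -0.034 ± 0.04, 95% interval -0.11 to 0.043, adjusted p = 0.657). For both, the groups overlapped.

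The 19 collagen genes under the minimum were the fibrillar Col2a1 and Col11a2, Col4a3, Col4a4, Col4a6, Col6a4, Col6a5, Col6a6, the FACIT genes Col9a2, Col9a3, Col19a1 and Col22a1, Col10a1, the 4 transmembrane genes Col13a1, Col17a1, Col23a1 and Col25a1, and Col7a1 and Col26a1. Of these, 14 had at most 15 reads in every library. The groups were apart for 3 of the 19, namely Col4a6, Col6a4 and Col9a2, each lower in DoxSa. Among all tested genes, the groups were apart and lower in DoxSa for 4.71% and apart and higher for 7.8%. These shares leave out genes under the minimum, for which the matching share is not given here. Col9a2, a cartilage FACIT chain, had 8 to 11 reads in DMSO and 3 to 6 in DoxSa. Col7a1, the anchoring fibril collagen of skin, measured 0.108 to 0.210 FPKM in DMSO and 0.0759 to 0.132 FPKM in DoxSa with overlapping groups, and Col23a1, a transmembrane collagen, 0.189 to 0.360 FPKM in DMSO and 0.298 to 0.380 FPKM in DoxSa, also with overlap. Without a filter on low values none of the 19 was called. At such levels the pseudocount of 1 shrinks any change. Col4a6, for example, had a log2 fold change of -0.11 in that fit, where its mean fell by 49.2%. That fit therefore cannot tell whether the 19 genes changed.

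**Figure D3:**
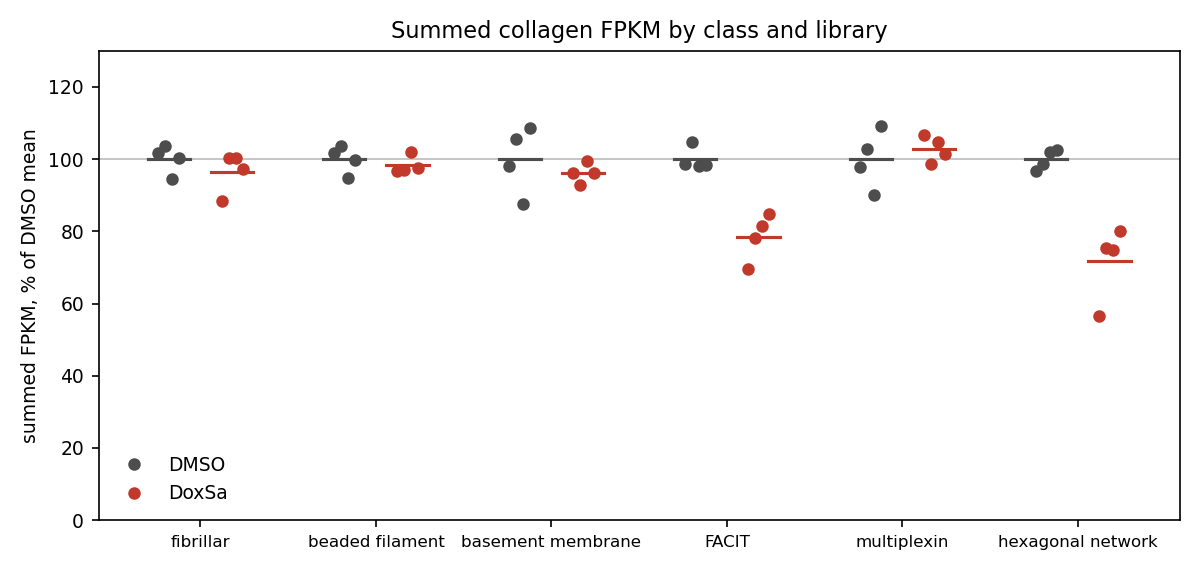
Summed FPKM of all genes of a class as a percentage of the DMSO mean of that class (y axis, from 0), with a point per library and a line at each group mean. The FACIT and hexagonal network sums of the 4 DoxSa libraries lie below all 4 DMSO libraries, and the other 4 classes overlap.

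Summed over classes, the collagen transcript pools of the 2 groups overlapped. All 43 genes together amounted to 5776 to 6376 FPKM in DMSO and 5517 to 6141 FPKM in DoxSa, and to 3.24% to 3.79% of the reads of a library. The fibrillar genes held 73.0% of the collagen FPKM, the beaded filament genes 14.3%, the basement membrane genes 6.83% and the FACIT genes 2.69%. The summed FPKM of FACIT genes averaged 181 FPKM in DMSO and 142 FPKM in DoxSa, of which Col12a1 made up 139 and 102 FPKM. By library this sum was 178 to 190.2 FPKM in DMSO and 126 to 154 FPKM in DoxSa, and the groups were apart. For the hexagonal network it was 13.0 to 13.7 FPKM in DMSO and 7.57 to 10.7 FPKM in DoxSa, again apart. The fibrillar sum was 4226 to 4641 FPKM in DMSO and 3952 to 4492 FPKM in DoxSa, the basement membrane sum 368 to 456 FPKM in DMSO and 389.8 to 417 FPKM in DoxSa and the beaded filament sum 827 to 903 FPKM in DMSO and 844 to 889 FPKM in DoxSa, all 3 with overlap. The 7 called genes made up 5.47% of the collagen FPKM.

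Genes that modify, fold, trim, cross-link, bind or degrade collagen were read from the same fit. The lists held 81 genes, of which 73 were tested, 7 fell and 4 rose, with a median log2 fold change of -0.0074. Of all 12060 tested genes, 2.02% were called lower and 3.88% higher, and the 4 rises among 73 are near that share. The 7 that fell were 9.59% of the 73. Adamts14, 1 of the 4 that rose, passed the minimum only through its DoxSa libraries. Of 14 tested genes that hydroxylate or glycosylate the chains, 0 passed the test, with 4 at an unadjusted p under 0.05. Of 13 for folding and export 0 passed, with 1 at that p. The share of all genes at that p is not given here, so these counts have no background beside them. Of the 14, 5 lay below 0, and of the 13, 9 did, against 43.3% of all tested genes. Voom called 0 in these 2 lists. P4ha1, a catalytic subunit of prolyl 4-hydroxylase, measured 109.6 to 126 FPKM in DMSO and 119 to 128 FPKM in DoxSa (log2 fold change 0.093 ± 0.04, adjusted p = 0.278). Serpinh1, the collagen chaperone HSP47, measured 642 to 651 FPKM in DMSO and 602 to 666 FPKM in DoxSa (log2 fold change -0.0068 ± 0.04, 95% interval -0.089 to 0.075, adjusted p = 0.954). In both genes the groups overlapped.

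Among 6 tested genes of propeptide cleavage, 1 rose. Adamts14, a protease that removes the amino-terminal propeptide, measured 0.387, 0.399, 0.479 and 0.328 FPKM in DMSO 1 to 4 and 0.813, 0.764, 0.669 and 0.747 FPKM in DoxSa 1 to 4. All DoxSa libraries were higher (log2 fold change 0.32 ± 0.05, adjusted p = 0.00665, and 0.92 by voom), although this gene passed the minimum only through its DoxSa libraries. Bmp1, which removes the carboxy-terminal propeptide, and its enhancer Pcolce did not pass the test, with log2 fold changes of 0.10 ± 0.04 (adjusted p = 0.15) and -0.015 ± 0.04 (adjusted p = 0.896).

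The 7 cross-linking genes gave 1 fall and 2 rises. Lox, the lysyl oxidase that starts the covalent links between collagen molecules, measured 884, 863, 905 and 933 FPKM in DMSO 1 to 4 and 682, 769, 802 and 785 FPKM in DoxSa 1 to 4. Every DoxSa library was lower, and the mean fell by 15.3% (log2 fold change -0.24 ± 0.05, adjusted p = 0.0194, and adjusted p = 0.0504 without DoxSa 2). Its relative Loxl3 rose, at 36.0 to 41.4 FPKM in DMSO and 44.5 to 47.6 FPKM in DoxSa (log2 fold change 0.20 ± 0.05, adjusted p = 0.0296). Tgm2, a transglutaminase, rose at 67.9 to 73.4 FPKM in DMSO and 76.0 to 82.8 FPKM in DoxSa (log2 fold change 0.15 ± 0.04, adjusted p = 0.0405). Loxl3 was not called without DMSO 2, DoxSa 1, DoxSa 2 or DoxSa 3 or after median-of-ratios scaling (adjusted p = 0.055), and Tgm2 was called in 6 of 17 other settings, not without DMSO 2, DMSO 3, DMSO 4, DoxSa 1, DoxSa 2 or DoxSa 3.

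Of 15 tested matrix proteins that bind collagen fibrils, 4 fell and 0 rose. They were the small leucine-rich proteoglycans Prelp, Podn, Fmod and Aspn, which sit on fibrils and shape their growth. Prelp measured 123, 112, 117 and 117 FPKM in DMSO 1 to 4 and 79.9, 90.4, 101 and 98.6 FPKM in DoxSa 1 to 4, with the groups apart (log2 fold change -0.34 ± 0.07, adjusted p = 0.0122). Fibromodulin, encoded by Fmod, measured 62.7 to 65.4 FPKM in DMSO and 44.3 to 57.1 FPKM in DoxSa (log2 fold change -0.28 ± 0.07, adjusted p = 0.0372). Asporin, encoded by Aspn, measured 27.1 to 38.2 FPKM in DMSO and 24.0 to 26.8 FPKM in DoxSa (log2 fold change -0.32 ± 0.08, adjusted p = 0.0438), and Podn 8.77 to 9.59 FPKM in DMSO and 6.16 to 8.14 FPKM in DoxSa (log2 fold change -0.32 ± 0.07, adjusted p = 0.0295). Decorin, the best known of the family and encoded by Dcn, measured 129 to 155 FPKM in DMSO and 139.7 to 157 FPKM in DoxSa, with overlap (log2 fold change 0.064 ± 0.06, adjusted p = 0.644). The calls of Fmod, Podn and Aspn were lost in 7, 6 and 9 of 17 other settings. The libraries whose omission ended a call were DMSO 1 to 4 and DoxSa 3 for Fmod, DMSO 2 to 4, DoxSa 1 and DoxSa 4 for Podn, and all but DMSO 2 for Aspn. Prelp lost its call only without a filter on low values.

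Of 11 tested collagen receptors and uptake genes, 2 fell and 0 rose, and both encode integrin alpha subunits that bind collagen. Itga1 measured 5.97, 6.44, 6.25 and 6.08 FPKM in DMSO 1 to 4 and 4.56, 4.44, 5.14 and 5.12 FPKM in DoxSa 1 to 4, and the groups were apart (log2 fold change -0.31 ± 0.05, adjusted p = 0.00687). It was called in all 17 other settings. Itga11, the receptor of mesenchymal cells for type I collagen, measured 68.2, 62.7, 64.8 and 66.1 FPKM in DMSO 1 to 4 and 44.3, 50.1, 59.5 and 56.3 FPKM in DoxSa 1 to 4 (log2 fold change -0.32 ± 0.08, adjusted p = 0.0317). Its groups were apart too, but it was not called without DMSO 1, DMSO 2, DMSO 3, DMSO 4 or DoxSa 2, or with library quality weights (adjusted p = 0.0526). Among 7 tested degradation genes 1 rose. Mmp13, a collagenase, measured 1.72, 1.88, 1.46 and 1.80 FPKM in DMSO 1 to 4 and 3.01, 2.52, 2.90 and 1.96 FPKM in DoxSa 1 to 4 (log2 fold change 0.40 ± 0.09, adjusted p = 0.0265), and was not called without DMSO 3, DoxSa 1, DoxSa 2 or DoxSa 3. The gelatinase gene Mmp2 was far more abundant and differed by -0.044 ± 0.04 (adjusted p = 0.608).

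**Figure D4:**
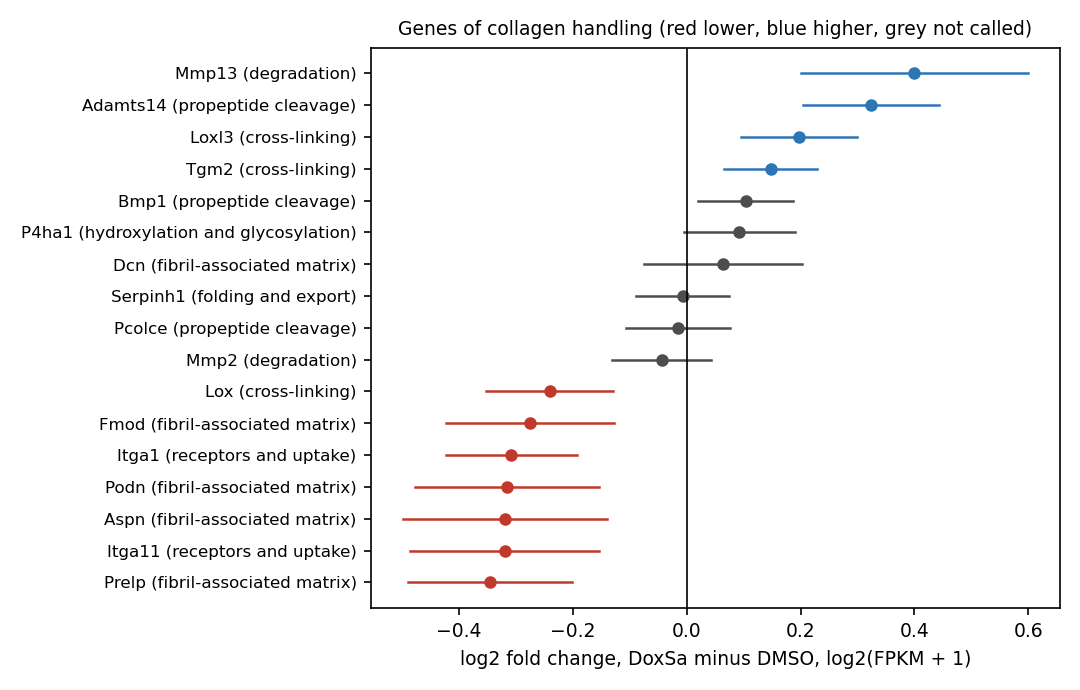
Log2 fold change of DoxSa minus DMSO on the log2(FPKM + 1) scale (x axis) with 95% intervals for the 11 called genes of collagen handling and 6 well-known ones that were not called. Lox, 4 proteoglycans and 2 integrins are lower, and Mmp13, Adamts14, Loxl3 and Tgm2 are higher.

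The labels call the cells mature adipocytes, and adipocyte markers were high, with Fabp4 at 8512 to 8906 FPKM in DMSO and Adipoq at 730.0 to 794 FPKM. The 12 adipocyte markers summed to 12128 to 12499.6 FPKM in DMSO and 12109 to 12775 FPKM in DoxSa, and 1 of them, Retn, fell. Fabp4 made up most of this sum. Of the 12, 11 had a log2 fold change below 0, with a median of -0.076. Of all 12060 tested genes, 43.3% lay below 0, 2.02% were called lower and 3.88% higher. Macrophage markers were also abundant, with sums of 6280.0 to 7238 FPKM in DMSO and 7003 to 7482 FPKM in DoxSa. Of the 10, 2 rose, Cd14 and Ptprc, and 0 lay below 0, with a median log2 fold change of 0.12. Cd14 alone was called without any 1 of DoxSa 1 to 4, and Ptprc also lost its call after median-of-ratios scaling or quantile normalization. Of the 8 myofibroblast and smooth muscle markers 7 fell, or 6 of 7 without Myh11, which was tested only because of its DMSO level, and their sums were 711 to 800.4 FPKM in DMSO and 487 to 549 FPKM in DoxSa, with the groups apart. Of 12 fibroblast and progenitor markers, 2 of 10 tested fell, namely Pdgfrb and Fbn1, where 2.02% of all tested genes did. Of the 10, 8 lay below 0, with a median log2 fold change of -0.15. Their sums of 1001 to 1171 FPKM in DMSO and 1075 to 1145 FPKM in DoxSa overlapped. The most abundant of these markers, Ly6a, differed in the other direction (log2 fold change 0.31, not called). Endothelial sums were 2.60 to 3.65 FPKM in DMSO and 3.59 to 3.95 FPKM in DoxSa, mesothelial sums 16.8 to 17.3 FPKM in DMSO and 11.6 to 16.2 FPKM in DoxSa, pericyte sums 6.77 to 8.37 FPKM in DMSO and 7.62 to 8.53 FPKM in DoxSa and Schwann cell sums 7.37 to 9.08 FPKM in DMSO and 7.94 to 9.96 FPKM in DoxSa. Of these 4, the mesothelial groups were apart, with 1 tested marker (Krt19, not called), and 0 genes were called. Proliferation markers, 8 tested and 0 called, summed to 136 to 146 FPKM in DMSO and 139 to 151 FPKM in DoxSa. No marker with values was at 0 in all libraries, and the listed mesothelial markers Upk1b and Krt8 were not analysed here. The part of the other cell types in the collagen result was not tested either.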

How the data were processed

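RNA was sequenced in 8 libraries (4 DMSO, 4 DoxSa). Per the labels' protocols, RNA was extracted with TRIzol and made into libraries with a VAHTS Universal V6 kit. HISAT2, HTSeq and build GRCm39 are named in the submitters' processing notes, with versions, annotation and strand setting not stated in what was read here. Values are FPKM computed by the authors, in 1 deposited table, and library totals of 39213008 to 41365861 reads and whole reads of all 12060 tested genes (within 0.001) were recovered from the steps of the values. Libraries of a group differed beyond sampling noise (chi-square per degree of freedom at least 5.67). The minimum of 0.5 FPKM was a chosen setting. Collagen genes under it had few reads, at most 94 in a library for Col23a1, the highest of them.

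The test was limma 3.58.1 (R 4.3.3) (lmFit, then eBayes with its trend option) on log2(FPKM + 1), two-sided, for genes averaging 0.5 FPKM or more, with Benjamini-Hochberg adjustment over all of them and a threshold of 0.05. SE is the moderated standard error. The members, classes, marker lists and naming rule were chosen with earlier results of these data known. The rule named the called collagen genes, the 2 most abundant of each class, partner chains of a trimer, the called genes of each pathway list and a few well-known enzymes. Collagen genes are also reported by class in counts. The fit was tested on simulated data. Alternatives were another pseudocount, other minimum levels, 2 other scalings, library quality weights, no trend, a replicate block, voom and each library left out. Python 3.11.15, pandas 2.3.3 and matplotlib 3.10.9 were used for the rest.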

Additional observations from a re-analysis of the deposited data

Results flagged for a closer look

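Within-group spread was examined for 112 groups of 4 libraries (named genes, class sums and chain ratios), and in 7 a single library lay far from the other 3. Chance flags about 1 in 20 such groups. DMSO 3 was low for Col1a1 (1209 FPKM against 1328 to 1348) and for Col6a3 (85.3 FPKM against 91.3 to 92.3). DoxSa 3 was high for Col6a2 (252 FPKM against 238 to 239) and for the beaded filament sum (889 FPKM against 844 to 850.4). DoxSa 2 was low for Col18a1 (15.6 FPKM against 16.2 to 16.3) and DoxSa 1 for P4ha1 (119 FPKM against 128 to 128). DMSO 2 was high for the FACIT sum (190.2 FPKM against 178 to 179). None of the 7 called collagen genes was among them.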

How the results depend on the processing

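Collagen genes called lower numbered 7 with a pseudocount of 0.1, either scaling, library quality weights or voom, 6 with a minimum of 2 FPKM (Col8a2 not tested), no trend or the replicate block, 5 to 7 with 1 library left out and 2 with no filter on low values. In each of these settings the called genes were among the 7, and 0 collagen genes were called higher. With no filter, all 43 genes enter, the low ones shrunk by the pseudocount of 1, and the median log2 fold change was -0.023. Over left-out libraries it was -0.11 to -0.061. Over all genes, 158 were higher and 108 lower with no filter, and 233 to 490 and 152 to 235 with 1 library left out. Quantile normalization gave 384 higher and 316 lower in place of 468 and 244, median-of-ratios scaling 388 and 289. Genes of collagen handling called higher numbered 1 with no filter, 2 after median-of-ratios scaling, 2 with no trend and 1 to 4 over left-out libraries, and those called lower 1 with no filter and 3 to 6 over left-out libraries. The cause was not tested. Small differences that were not called changed sign: Col3a1 was -0.012 with quantile normalization and Serpinh1 0.0022 with library quality weights, and over left-out libraries Col4a1 -0.099 to 0.0038, Col6a2 -0.036 to 0.00077, Col16a1 -0.036 to 0.023, Serpinh1 -0.024 to 0.025 and Pcolce -0.039 to 0.013. Deviations of same-numbered DMSO and DoxSa libraries correlated at -0.0989 to 0.0654 across genes, and those of other pairs at -0.205 to 0.154. With 4 libraries per group these values cannot decide whether same-numbered libraries share an origin, which the labels do not state. The replicate block gave 6 collagen genes lower, 415 of all genes higher and 209 lower, and under it Col28a1 had an adjusted p of 0.0728. Few reads limit Col8a2 and the 19 untested genes.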

Other observations

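Neighbouring collagen genes can be set side by side. In the RefSeq gene table of GRCm38.p6, pairs of collagen genes next to each other among protein coding genes were Col3a1 and Col5a2, Col6a1 and Col6a2, Col4a1 and Col4a2, Col4a5 and Col4a6, and Col4a3 and Col4a4, with Col6a4, Col6a5 and Col6a6 in a row. Within a pair levels differed widely in some cases, at 1440.1 and 294 FPKM for Col3a1 and Col5a2 and 6.0 and 0.138 FPKM for Col4a5 and Col4a6 over the 8 libraries.

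Balances between chains of different collagen types were looked at after the values had been seen and are given as descriptions without a test. The ratio of Col3a1 to Col1a1 in FPKM was 1.10, 1.09, 1.14 and 1.01 across DMSO 1 to 4 and 1.21, 1.24, 1.16 and 1.18 across DoxSa 1 to 4, and every DoxSa library was above every DMSO library although neither gene was called. The ratio of Col12a1 to Col1a1, the surface chain against the fibril chain, was 0.101, 0.109, 0.114 and 0.102 across DMSO 1 to 4 and 0.0813, 0.0790, 0.0822 and 0.0910 across DoxSa 1 to 4, lower in all DoxSa libraries. The ratio of Col4a5 to Col4a1 was 0.0268, 0.0309, 0.0277 and 0.0266 across DMSO 1 to 4 and 0.0198, 0.0213, 0.0188 and 0.0231 across DoxSa 1 to 4, also lower in all DoxSa libraries. Col12a1 and Col4a5 were themselves called lower, so the lower ratios of Col12a1 and Col4a5 largely restate those calls.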
